A study of Mus musculus with 12 samples.

Results

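The heat shock chaperones and their co-chaperones were examined as 10 genes chosen by name, of 25069 in the table: the HSP70 genes Hspa8, Hspa1a and Hspa1b, the HSP110 gene Hsph1, the HSP90 gene Hsp90aa1, the J-domain gene Dnajb1, the co-chaperone genes Stip1 and Chordc1, and the mitochondrial chaperonin pair Hspd1 and Hspe1. The choice was made with earlier results of these data known. All 10 had reads in every one of 12 liver libraries, and 9 passed the filter for testing, a mean of at least 10 normalized counts over the libraries; Hspa1a did not. Each library came from 1 female mouse, and all 12 mice carried wild-type Khdc3, which encodes a protein of the egg's subcortical complex. In the 4 WTMM mice the grandmothers of either side were Khdc3-null, in the 4 WTPP mice the grandfathers of either side were, and the 4 WT mice had wild-type ancestors alone. Age and strain were not given in the sources used here. The labels name hepatocytes as the cell type and liver as the tissue, and markers of Kupffer cells and other liver cells were present in every library, so fewer cells of a type and less RNA per cell cannot be told apart. Libraries held 25070718 to 35843972 reads assigned to genes. Khdc3 had 7 reads in all libraries together and could not check the labels.

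HSP70 proteins bind exposed stretches of unfolded proteins in cycles of ATP hydrolysis that J-domain proteins start and nucleotide exchange factors, among them the HSP110 proteins, end. Stip1 joins HSP70 to HSP90, to which it passes client proteins such as steroid hormone receptors. In stressed cells heat shock factor 1 binds arrays of inverted GAA units in the promoters of these genes and raises them together, while Hspa8, the constitutive HSP70, is abundant in liver at all times. Hspd1 and Hspe1 form the folding chamber of the mitochondrial matrix.

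Genes of the circadian clock, which cycle over the day in liver, divided the WTPP libraries. Arntl, an activator of the clock, had 62.7, 90.6, 119 and 52.2 normalized counts in WTMM and 933, 541, 38.8 and 32.0 in WTPP 2, 3, 6 and 7, against 174, 175, 102 and 139 in WT. Dbp, a clock-driven transcription factor, had 4649, 3716, 3667.5 and 4156 normalized counts in WTMM and 140.3, 1316, 4930.4 and 6545 in WTPP 2, 3, 6 and 7, against 2074, 3400.2, 2755 and 2992.5 in WT. WTPP 2 and 3 lay above all 10 other libraries for 3 and below them for 8 of 18 clock genes, where 3.06% of all tested genes lay above and 2.70% below. WTPP 6 and 7 lay above all 10 others for 7 and below them for 3 of the 18, where 5.21% of all tested genes lay above and 5.66% below. The pairs were chosen after the data were seen, so counts by pair, here and below, describe the division and do not test it. Clpx, of a mitochondrial protease, split the same libraries, with 11398, 7209, 2922 and 2385 normalized counts in WTPP 2, 3, 6 and 7, against 2462 to 2942 in WTMM and 2572 to 3815 in WT. The hour of sampling was not given in the sources used here, and results are given also without each of these pairs, which leaves 2 WTPP libraries.

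Livers of WTPP mice had lower transcripts of 6 of the 9 tested genes than livers of WT mice: Hspa8, Hsph1, Hsp90aa1, Dnajb1, Stip1 and Chordc1, by 1.43-fold for Dnajb1 to 2.31-fold for Hsph1. The fit called 5.53% of all 14473 tested genes lower and 4.68% higher in WTPP than in WT, and 0 of the 9 genes was called higher. Because earlier results of these data were known when the genes were chosen, such shares do not test them as a set. In WTMM livers 0 of the 9 genes was called against WT with limma, where 4.44% of all genes were higher and 5.94% lower; at an unadjusted p under 0.05 there was 1, Stip1, and 3 of 27 alternative fits called 1, also Stip1. The direct test of the lineages called 5 of the 9 higher in WTMM than in WTPP, Hspa8, Hsph1, Dnajb1, Chordc1 and Hspa1b, where 2.29% of all genes were higher and 1.88% lower. Without WTPP 2 and 3 the fit called 5 genes lower in WTPP against WT, all of the 6 but Dnajb1, and without WTPP 6 and 7 it called 4, Hspa8, Hsph1, Stip1 and Chordc1. Of all 14473 tested genes it called 1655 without WTPP 2 and 3 and 659 without WTPP 6 and 7, in either direction. Between the lineages it called Hspa8, Hsph1, Chordc1, Stip1 and Hsp90aa1 higher in WTMM without WTPP 2 and 3, and Hspa8, Chordc1, Dnajb1 and Hspa1b without WTPP 6 and 7, so that Hspa8 and Chordc1 were called in both. Of all tested genes, 514 and 668 were called between the lineages in these fits, in either direction. The median log2 fold change of the 9 genes was -0.08 for WTMM against WT, -0.76 for WTPP against WT and 0.71 for WTMM against WTPP, while that of all tested genes was 0.00, -0.01 and 0.00. Markers of Kupffer cells, the macrophages of liver, were also lower in both lineages against WT, 9 of 10 in WTMM and 10 of 10 in WTPP. The contrasts share libraries, so their values for a gene are not independent of each other.

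**Figure D1:**
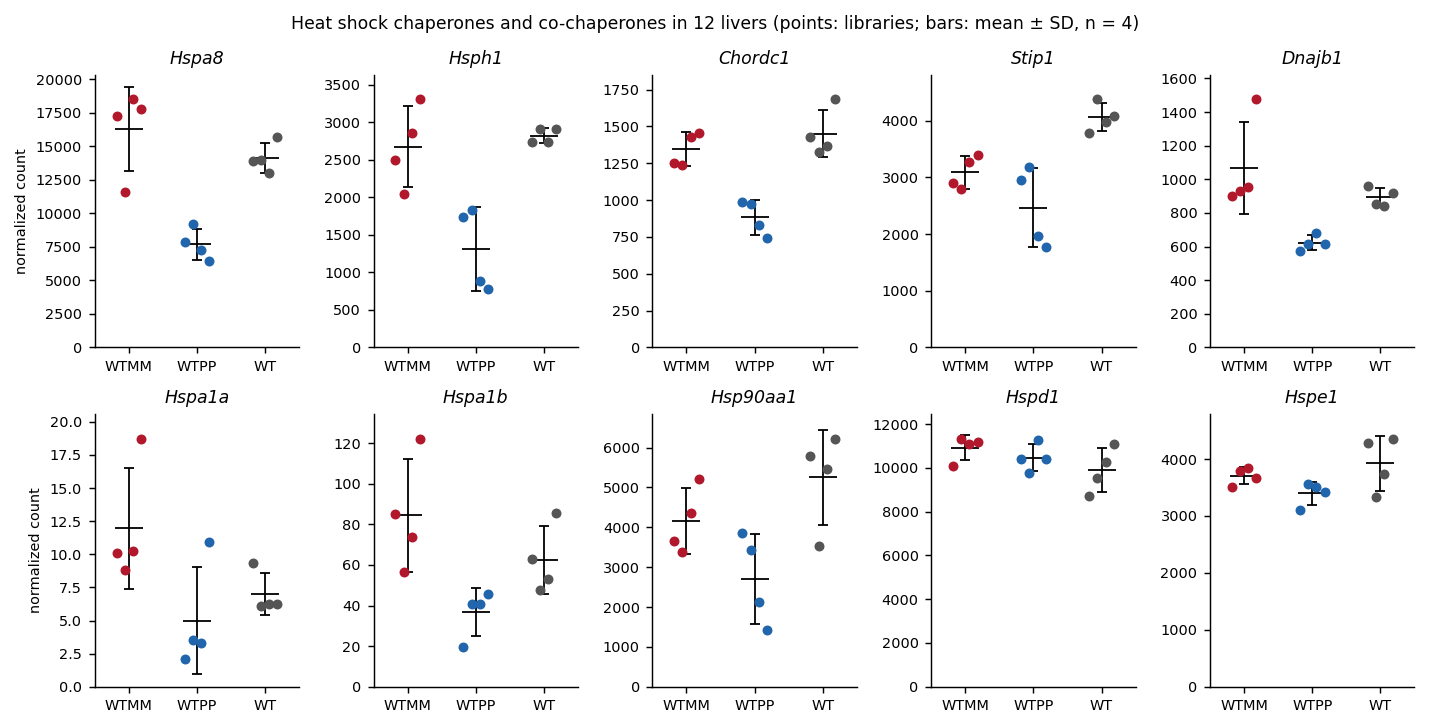
Normalized counts of the 10 genes in each library, with a linear axis from 0 in each panel; points are libraries, and bars give the mean ± SD of 4 libraries for WTMM, WTPP and WT. The WTPP libraries lie below all WT libraries for Hspa8, Hsph1, Chordc1, Stip1, Dnajb1 and Hspa1b, and the groups overlap for Hspd1 and Hspe1.

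Among the HSP70 genes, Hspa8 (ENSMUSG00000015656.17, chromosome 9, 40800984 to 40810087, GRCm38) encodes the constitutive cytosolic chaperone. Hspa8 had 17263.5, 11609, 18509 and 17809.7 normalized counts in WTMM livers and 7893, 9216, 7245 and 6456 in WTPP livers, against 13923, 13950.5, 12997 and 15697 in WT livers. The WTPP libraries were all below the other 8, and WTMM 7 was the only WTMM library below the WT range. Hspa8 averaged 16298 ± 3167 in WTMM, 7702.5 ± 1168 in WTPP and 14142 ± 1127 in WT (SD, n = 4 each). It was 2.10-fold higher in WTMM than in WTPP (log2 fold change 1.07 ± 0.15 SE, adjusted p = 0.00148). Against WT it was not called in WTMM (log2 fold change 0.18 ± 0.15 SE, adjusted p = 0.445). In WTPP it fell against WT (log2 fold change -0.89 ± 0.15 SE, adjusted p = 0.00335), a call kept in all 27 alternative fits, with log2 fold changes of -1.045 to -0.73.

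Hspa8 has processed copies elsewhere in the genome, and 74.8% of the 50-base windows of its longest coding transcript occur unchanged in a transcript of another annotated gene. The copy with the largest share, Gm15459 (a processed pseudogene on chromosome 5, 5781615 to 5783555), holds 70.0% of these windows. Gm15459 was listed with 4478, 7358.5, 4784 and 4800.4 normalized counts in WTMM, 5486, 6369, 5097 and 4325.5 in WTPP and 8419, 9204, 9235 and 10334 in WT. It was called lower in WTMM than in WT, where Hspa8 was not called (log2 fold change -0.82 ± 0.15 SE, adjusted p = 0.00587) and lower in WTPP than in WT (-0.82 ± 0.15 SE, adjusted p = 0.00624), with WTMM 7 the highest of the WTMM libraries. When Hspa8 and its 5 copies in the table were summed, Hspa8 held 78.6, 60.5, 78.7 and 78.2% of the sum in WTMM, 58.5, 58.5, 58.3 and 59.4% in WTPP and 61.8, 59.7, 58.0 and 59.8% in WT. The share was near that of WT in all 4 WTPP libraries and in WTMM 7, and stood apart in WTMM 6, 8 and 9. The summed counts were 21965, 19176, 23524 and 22776 in WTMM, 13491, 15761, 12430.1 and 10866 in WTPP and 22545, 23371, 22414 and 26264 in WT, so that WTPP stayed below both other groups without overlap. The sum was lower in WTPP than in WT (log2 fold change -0.86 ± 0.12 SE, adjusted p = 0.00106) and higher in WTMM than in WTPP (0.74 ± 0.12 SE, adjusted p = 0.00339), where Hspa8 alone gave 1.07. Between WTMM and WT the sign turned, from 0.18 for Hspa8 alone to -0.11 for the sum, and neither was called. How the authors' counting divided reads between Hspa8 and its copies was not given in the sources used here, and its part in the Hspa8 level of WTMM was not tested further.

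**Figure D2:**
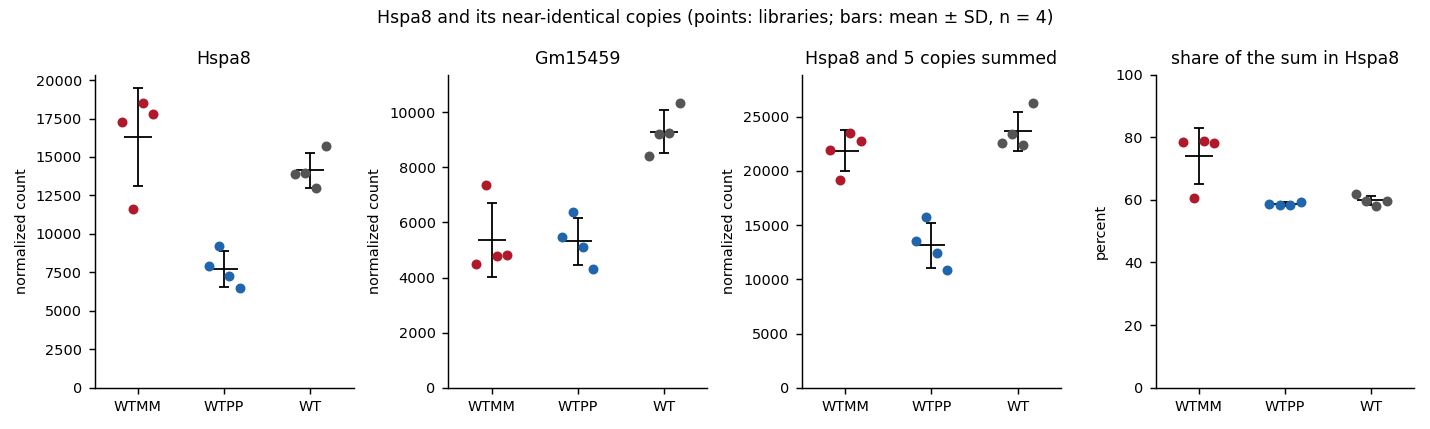
Hspa8, its copy Gm15459, the sum of Hspa8 with its 5 copies (all normalized counts) and the percentage of that sum listed under Hspa8, by group; points are libraries and bars the mean ± SD of 4. The share is 78.2% to 78.7% in 3 WTMM libraries and 58.0% to 61.8% in the other 9.

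Hsph1 (ENSMUSG00000029657.15, chromosome 5, 149614287 to 149636376) encodes an HSP110 protein, which exchanges the nucleotide of HSP70, and shares no 50-base window with another gene. Hsph1 had 2498, 2047, 2855.5 and 3304 normalized counts in WTMM livers and 1742, 1833, 889 and 774 in WTPP livers, against 2732.5, 2907, 2732 and 2907 in WT livers. WTPP 6 and 7 were far below WTPP 2 and 3, and all 4 lay below the WTMM and WT libraries. Hsph1 averaged 2676 ± 534 in WTMM, 1309 ± 555 in WTPP and 2819.7 ± 101 in WT (SD, n = 4 each). It had the largest fall of the 9 genes in WTPP against WT (log2 fold change -1.21 ± 0.24 SE, adjusted p = 0.00855). It was 2.16-fold higher in WTMM than in WTPP (log2 fold change 1.11 ± 0.24 SE, adjusted p = 0.0227). That second call was lost in 5 of 27 alternative fits, with only the groups compared and without WTMM 8, WTMM 9, WTPP 6 or WTPP 6 and 7, at adjusted p up to 0.0780. Against WT the log2 fold change was -1.76 without WTPP 2 and 3 and -0.66 without WTPP 6 and 7, called in both (adjusted p = 0.000144 and 0.0276).

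Hspa1b (ENSMUSG00000090877.3, chromosome 17, 34956436 to 34959238) and Hspa1a (ENSMUSG00000091971.3, chromosome 17, 34969190 to 34972156) are neighbouring intronless genes for the stress-induced HSP70. They share 62.3% and 58.8% of their 50-base windows with each other, so how their reads divide is uncertain. Hspa1b had 85.1, 56.3, 73.9 and 122 normalized counts in WTMM livers and 19.6, 40.7, 41.0 and 45.7 in WTPP livers, against 63.1, 47.5, 53.2 and 85.8 in WT livers. No WTPP library reached the WT or the WTMM range. Hspa1b was 2.28-fold higher in WTMM than in WTPP (log2 fold change 1.19 ± 0.29 SE, adjusted p = 0.0372), a call lost in 13 of 27 alternative fits, among them that without WTPP 2 and 3, at adjusted p up to 0.140. It was not called in WTPP against WT (log2 fold change -0.78, 95% interval -1.41 to -0.15, adjusted p = 0.107). Hspa1a overlaps Gm20481 on the other strand over 564 exonic bases, and it had low counts, with 10.1, 8.80, 10.2 and 18.7 normalized counts in WTMM, 2.06, 3.54, 3.33 and 10.96 in WTPP and 9.34, 6.06, 6.26 and 6.24 in WT. All 3 groups overlapped, and WTPP 7 was above 3 of the 4 WTMM libraries. In exact two-sided permutation tests of Hspa1a on log2(normalized count + 1), adjusted over the 3 comparisons, p was 0.171 for WTMM against WT, 0.286 for WTPP against WT and 0.171 for WTMM against WTPP, where 4 against 4 libraries can give no unadjusted p below 0.0286. The sum of both genes gave the same calls as Hspa1b (log2 fold change 1.21 ± 0.30 SE, adjusted p = 0.0356 for WTMM against WTPP).

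The promoters are shown because genes of this family are known targets of heat shock factor 1, and because the near-identity of Hspa1a and Hspa1b extends upstream of them. The RefSeq promoter table (GRCm38.p6) held 8 of the 10 genes, with Hspa8 and Hsp90aa1 not matched. Each stretch runs 5′ to 3′ on the gene's strand from 150 to 21 bases before the RefSeq start, and capitals mark the words GAANNTTC or TTCNNGAA, a pair of facing GAA units.
Hsph1, second start, chr5:149636357-149636486, minus strand: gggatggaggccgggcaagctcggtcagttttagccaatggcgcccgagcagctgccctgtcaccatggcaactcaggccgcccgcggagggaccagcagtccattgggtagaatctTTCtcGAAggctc
Hspa1a, chr17:34972177-34972306, minus strand: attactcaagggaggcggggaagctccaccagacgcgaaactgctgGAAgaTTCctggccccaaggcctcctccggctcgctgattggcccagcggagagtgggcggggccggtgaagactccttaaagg
Stip1, chr19:7040047-7040176, minus strand: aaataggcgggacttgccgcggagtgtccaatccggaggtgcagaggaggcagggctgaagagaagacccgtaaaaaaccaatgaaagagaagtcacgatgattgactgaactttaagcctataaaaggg
Dnajb1, first start, chr8:83608025-83608154, plus strand: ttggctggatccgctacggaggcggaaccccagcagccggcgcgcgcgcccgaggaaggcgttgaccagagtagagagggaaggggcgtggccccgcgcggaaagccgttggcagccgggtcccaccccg
The stretch of Hspa1b (chr17:34959259-34959388, minus strand) is the same as that of Hspa1a, and over 250 bases before the start the pair differ at 3 bases. Hspd1 and Hspe1 are transcribed head to head from 1 promoter, and a site of 24 bases in it (chr1:55088056-55088079, plus strand), within the annotated first exon of an Hspd1 transcript, holds 4 alternating units that make 3 overlapping words: ccgTTCtaGAAccTTCcgGAAggc.
Over the 250 bases before the start, on both strands, Hsph1, Hspa1a and Hspa1b hold 1 word each and Hspe1 and the first of 2 RefSeq starts of Hspd1 hold the 3 of their shared site, while the second start of Hspd1 holds 0. The windows of Chordc1, Stip1 and Dnajb1 hold neither word, which says only that these letters are not in these windows. That of Chordc1 (chr9:18292017-18292266, plus strand) runs past the annotated gene start at 18292125, so part of it is not upstream of the gene. Windows of Hsph1, Hspe1 and the second start of Dnajb1 also reach into the annotated gene. Of 32851 RefSeq promoters of mouse, 6.69% hold GAANNTTC, 7.17% hold TTCNNGAA and 12.8% hold either; a word with 1 more unit, as in the Hspd1 and Hspe1 promoter, is held by 0.466%. Of the genes lower in WTPP than in WT, Hsph1 holds a word in its window and Stip1, Dnajb1 and Chordc1 hold none. Hspa8 and Hsp90aa1, also lower, had no promoter to look at. Hspe1 and the first start of Hspd1 hold 3, and neither gene was called in that fit. Whether the words bear on the levels was not tested.

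Hsp90aa1 (ENSMUSG00000021270.13, chromosome 12, 110690605 to 110702728) encodes the stress-inducible cytosolic HSP90. Hsp90aa1 had 3651, 3380.1, 4363 and 5215 normalized counts in WTMM livers and 3851, 3422, 2128 and 1417 in WTPP livers, against 5784, 3538, 5462 and 6223 in WT livers. WTPP 6 and 7 were the lowest of the 12 libraries, whereas WTPP 2 lay above WT 117, so the groups overlapped. Hsp90aa1 averaged 4152.6 ± 821 in WTMM, 2704.5 ± 1128 in WTPP and 5252 ± 1184.5 in WT (SD, n = 4 each). It fell in WTPP against WT (log2 fold change -1.03 ± 0.27 SE, adjusted p = 0.0308), a call lost in 9 of 27 alternative fits: without WT 116, 118 or 120, without WTPP 6, 7 or both, with no trend, with a robust fit and with only the groups compared, at adjusted p up to 0.226. The log2 fold change was -1.56 without WTPP 2 and 3 (adjusted p = 0.00232) and -0.50 without WTPP 6 and 7 (adjusted p = 0.226). It was not called in WTMM against WTPP (log2 fold change 0.71, 95% interval 0.12 to 1.29, adjusted p = 0.177). Its processed copies Gm12346 and Gm5844 had at most 97.6 and 14.0 normalized counts in a library.

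Dnajb1 (ENSMUSG00000005483.10, chromosome 8, 83608193 to 83612653) encodes a stress-inducible J-domain protein that delivers clients to HSP70. Dnajb1 had 898, 933, 956 and 1476 normalized counts in WTMM livers and 576.5, 615, 682 and 617 in WTPP livers, against 958, 853, 840.5 and 921 in WT livers. The 4 WTPP libraries lay close together below all others, and WTMM 9 stood far above the rest. Dnajb1 was 1.68-fold higher in WTMM than in WTPP (log2 fold change 0.75 ± 0.13 SE, adjusted p = 0.00869), a call kept in 26 of 27 alternative fits, also without WTMM 9, and lost without WTPP 2 and 3 (adjusted p = 0.0503). The fall in WTPP against WT (log2 fold change -0.52 ± 0.13 SE, adjusted p = 0.0278) was lost in 9 of 27 alternative fits: without WT 116, 118 or 120, without WTPP 2, 3 or 7, without either pair of WTPP libraries, and with no trend, at adjusted p up to 0.104.

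Of the co-chaperones, Stip1 (ENSMUSG00000024966.8, chromosome 19, 7020702 to 7039967) encodes the adaptor between HSP70 and HSP90, and shares 5.59% of its 50-base windows with Cfap20. Stip1 had 2904.5, 2789, 3278.5 and 3391 normalized counts in WTMM livers and 2948, 3183, 1969.7 and 1771 in WTPP livers, against 3791, 4378, 3982 and 4092 in WT livers. All 8 descendant libraries were below the lowest WT library, and WTPP 6 and 7 were the lowest. Stip1 averaged 3091 ± 289 in WTMM, 2468 ± 701.5 in WTPP and 4061 ± 246 in WT (SD, n = 4 each). It fell in WTPP against WT (log2 fold change -0.76 ± 0.16 SE, adjusted p = 0.0107). In WTMM against WT its log2 fold change was -0.40 (95% interval -0.74 to -0.05, adjusted p = 0.126), past the threshold in the fit of those 2 groups alone and in those without either pair of WTPP libraries (range of adjusted p over the alternatives 0.0125 to 0.253). In WTPP against WT it was -1.12 without WTPP 2 and 3 and -0.40 without WTPP 6 and 7 (adjusted p = 0.000196 and 0.0476). WTMM and WTPP did not differ past the threshold (log2 fold change 0.36, 95% interval 0.02 to 0.71, adjusted p = 0.239). The difference was called without WTPP 2 and 3 (0.72, adjusted p = 0.00515) and was 0.0079 without WTPP 6 and 7.

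Chordc1 (ENSMUSG00000001774.8, chromosome 9, 18292125 to 18317442) encodes a zinc-binding co-chaperone of HSP90. Chordc1 had 1248.5, 1239.9, 1428 and 1457 normalized counts in WTMM livers and 984, 974, 832.4 and 742 in WTPP livers, against 1427, 1329, 1367 and 1683.5 in WT livers. The WTPP libraries were all at or below 984, and the WTMM and WT libraries all at or above 1239.9. Chordc1 had the smallest p of the 9 genes in WTPP against WT (log2 fold change -0.72 ± 0.11 SE, adjusted p = 0.00228). It was 1.53-fold higher in WTMM than in WTPP (log2 fold change 0.61 ± 0.11 SE, adjusted p = 0.00833). Both calls were kept in all 27 alternative fits.

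The mitochondrial pair was not called in any contrast by the limma fit of all 12 libraries; of the alternatives, the fit without WT 117 called Hspe1 lower in WTPP against WT (log2 fold change -0.28, adjusted p = 0.0315). Hspd1 had 10072, 11333.5, 11072 and 11201.5 normalized counts in WTMM livers and 10412, 9769, 11271 and 10402 in WTPP livers, against 8729, 9513.5, 10260.4 and 11087 in WT livers. The 3 groups overlapped in this gene for the chaperonin ring (ENSMUSG00000025980.14, chromosome 1, 55077835 to 55088243). Its log2 fold change was 0.15 in WTMM against WT (95% interval -0.04 to 0.34, adjusted p = 0.31) and 0.08 in WTPP against WT (95% interval -0.11 to 0.27, adjusted p = 0.592). Hspe1 had 3510.3, 3798, 3840.3 and 3676 normalized counts in WTMM livers and 3112, 3567, 3503 and 3429 in WTPP livers, against 4284, 3334.5, 3737 and 4358.5 in WT livers. This gene for the chaperonin's lid (ENSMUSG00000073676.4, chromosome 1, 55088132 to 55091307) also overlapped between the groups. Its log2 fold change was -0.08 in WTMM against WT (95% interval -0.27 to 0.12, adjusted p = 0.624) and -0.20 in WTPP against WT (95% interval -0.40 to -0.01, adjusted p = 0.174). The pair overlap head to head over 112 exonic bases on opposite strands, and 44.8% of the 50-base windows of each occur in other annotated transcripts, so part of their reads is uncertain.

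**Figure D3:**
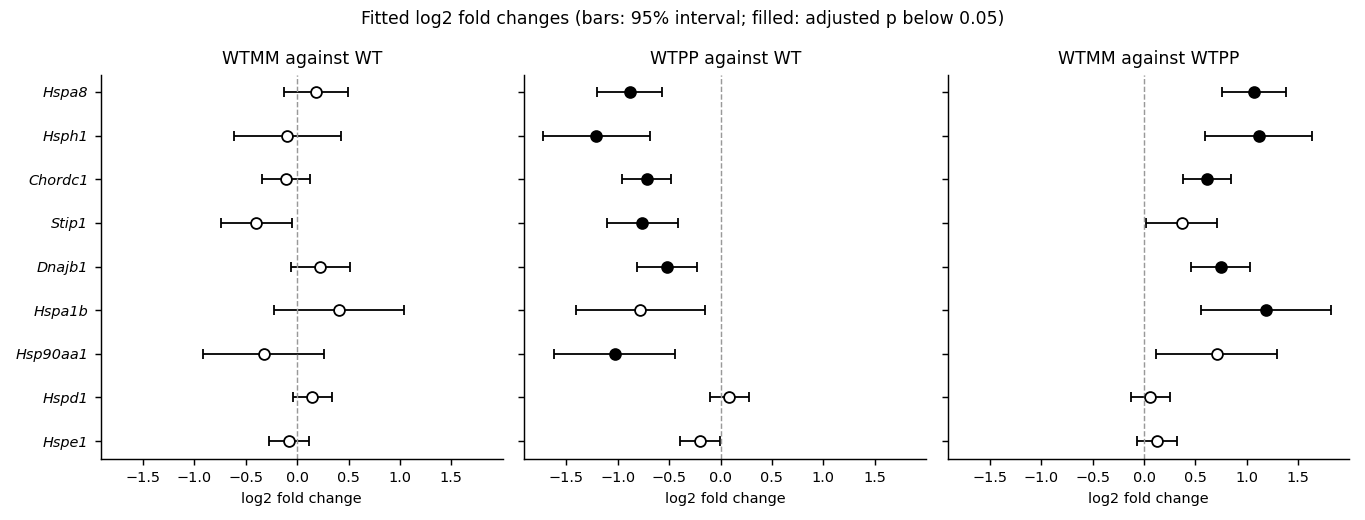
Log2 fold changes of the 9 tested genes in the 3 contrasts, on a shared axis of log2(normalized count + 1); bars are 95% intervals and filled points had an adjusted p below 0.05 over all genes. Filled points number 0 for WTMM against WT, 6 for WTPP against WT and 5 for WTMM against WTPP.

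Counted by overlap of libraries, WTPP lay wholly below WT for 6 of the 9 genes (Hspa8, Hsph1, Chordc1, Stip1, Dnajb1 and Hspa1b), where 7.81% of all tested genes did. WTMM lay wholly above WTPP for 5 of the 9, the same 5 that the fit called, where 6.94% of all tested genes did. WTMM lay wholly below WT for 1 of the 9, Stip1, and the share of all tested genes that did was not counted. Within WTPP the genes differed in which animals were lowest. Over the 6 genes called lower in WTPP, the median log2 difference from the WT mean was -0.59 in WTPP 2, -0.58 in WTPP 3, -1.001 in WTPP 6 and -1.16 in WTPP 7. All 6 genes were below the WT mean in each, which their choice by that call from the same libraries largely sets. In WTMM these medians were -0.19, -0.37, 0.00 and 0.13 for WTMM 6, 7, 8 and 9. WTPP 6 and 7, apart also in clock genes, were the lowest of the 12 libraries for 5 of the 9 genes, Hspa8, Hsph1, Stip1, Chordc1 and Hsp90aa1, where 5.66% of all tested genes had these 2 lowest. WTPP 2 and 3 were the lowest for Dnajb1 and Hspa1b, where 2.70% of all tested genes had them lowest. That order rests on near ties. Dnajb1 had 615.1 normalized counts in WTPP 3 and 616.6 in WTPP 7, and Hspa1b 40.7 in WTPP 3 and 41.0 in WTPP 6.

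**Figure D4:**
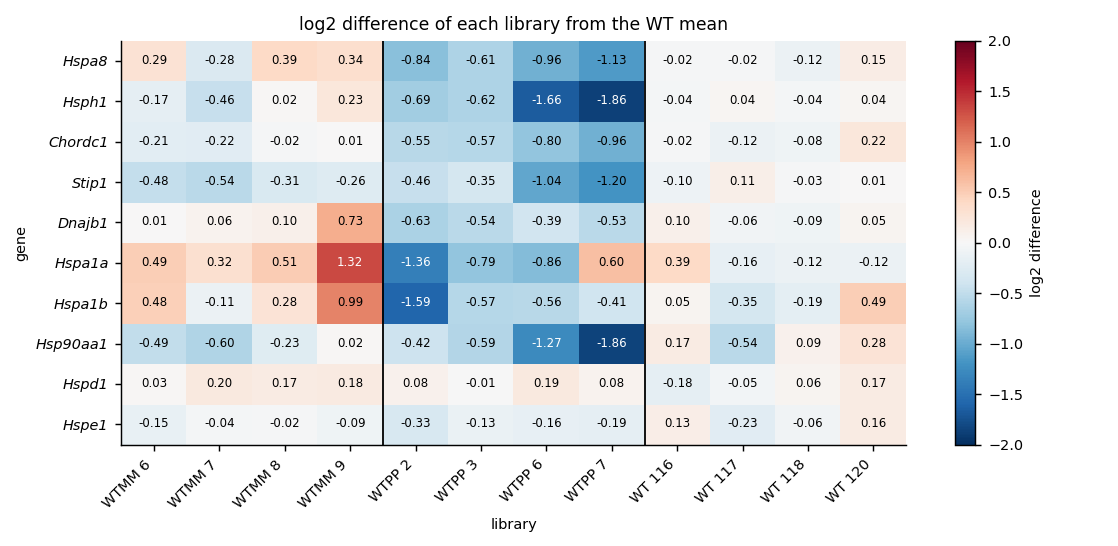
Log2 difference of each library from the mean of the 4 WT libraries, on log2(normalized count + 1), for the 10 genes in rows; blue cells are below and red cells above the WT mean, and lines divide WTMM, WTPP and WT. WTPP 6 and 7 are bluest for Hsph1, Stip1 and Hsp90aa1, and WTMM 9 is reddest for Hspa1a, Hspa1b and Dnajb1.

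Over the 12 libraries, Pearson r between pairs of the 9 tested genes was -0.353 to 0.942 (36 pairs, median 0.610), and -0.255 to 0.977 after group means were removed (median 0.234). Between pairs of the 6 genes called in WTPP, which that call chose, it was 0.473 to 0.942 (15 pairs, median 0.859). After group means were removed it was 0.0285 to 0.977 (median 0.720), highest for Hsph1 with Stip1 at 0.977 and for Chordc1 with Hsp90aa1 at 0.896. Dnajb1 had r of 0.0285 to 0.281 with the other 5 after that removal and 0.639 with Hspa1b. These are descriptions over libraries that share 1 normalization and the division within WTPP. Ranked by r with the mean standardised profile of the 9 genes among 11681 other genes with a mean of at least 50, the 5 nearest were Ywhag at 0.952, Prelid3b at 0.945, Arf2 at 0.933, Dnaja1 at 0.923 and Kpna2 at 0.909. After group means were removed they were Rest at 0.904, Zfp772 at 0.892, Trmt10b at 0.877, Dnajb5 at 0.868 and Mettl21a at 0.867.

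Per kilobase of annotated exon, the mean level over the 12 libraries was highest for Hspd1, at 3947 normalized counts per kilobase, followed by Hspa8 at 2956, Hspe1 at 2496, Stip1 at 1521, Hsp90aa1 at 1027, Hsph1 at 312, Dnajb1 at 269, Chordc1 at 164, Hspa1b at 21.8 and Hspa1a at 2.69. The ranges over libraries overlapped between neighbours in this order, except between Hspe1 and Stip1, between Chordc1 and Hspa1b and between Hspa1b and Hspa1a. The stress-induced HSP70 genes were the lowest of the 10 in every group. The order was the same in WTMM and in WT, whereas in WTPP Hspe1 at 2309 stood above Hspa8 at 1791 and Dnajb1 at 194 above Hsph1 at 180.2. Per kilobase of the longest coding transcript in place of all annotated exons, Hspa8 at 5311 and Hspe1 at 4753 stood above Hspd1 at 4303, so the order of these 3 depends on the length used.

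Of 42 tested HSP70, HSP90, J-domain and co-chaperone genes outside the 10, limma called 2 in WTMM against WT (4.76%, against 10.4% of all tested genes), 3 in WTPP against WT (7.14%, against 10.2%) and 3 in WTMM against WTPP (7.14%, against 4.17%). Among the 4 tested HSP70 and HSP110 genes outside the 10 (Hspa2, Hspa4, Hspa4l and Hspa14), 0 was called in any of the 3 contrasts with limma or with its voom fit; at an unadjusted p under 0.05 there were 2 in WTPP against WT, Hspa2 at a log2 fold change of -0.63 and Hspa4 at -0.23, and 0 in the other contrasts. Hsp90ab1, the constitutive HSP90, had a log2 fold change of -0.29 in WTPP against WT (limma, unadjusted p = 0.0426, adjusted p = 0.17). Of 14 other J-domain genes of cytosol and nucleus, 1 fell in WTPP against WT, Dnajc5 of synaptic and secretory vesicles (log2 fold change -0.33 ± 0.08 SE, adjusted p = 0.0192). In WTMM against WT 1 rose, Dnaja2 (log2 fold change 0.24 ± 0.07 SE, adjusted p = 0.0355). At an unadjusted p under 0.05 by limma, calls included, there were more of these 14 genes. They numbered 6 in WTPP against WT, 5 in WTMM against WT and 3 in WTMM against WTPP. The share of all tested genes at that p was not counted. Dnaja1, a partner of Hspa8, had 6294, 6703, 7309.9 and 6973 normalized counts in WTMM and 4933, 5125, 5269.5 and 3843 in WTPP, against 6701.5, 5262.5, 5909 and 8015 in WT. It and Dnaja2 were higher in WTMM than in WTPP, Dnaja1 at a log2 fold change of 0.52 (adjusted p = 0.0388), and the WTPP libraries of Dnaja1 overlapped only WT 117. Dnaja1 was just short of the threshold in WTPP against WT (log2 fold change -0.43, adjusted p = 0.0511 by limma).

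Of 23 other co-chaperone genes, 20 had a log2 fold change below 0 in WTPP against WT with a median of -0.13, and 1 was called lower, Fkbp4, an immunophilin of steroid receptor complexes (log2 fold change -0.36 ± 0.10 SE, adjusted p = 0.035). At an unadjusted p under 0.05 by limma, calls included, there were 8 of the 23 in WTPP against WT. There were 4 in WTMM against WT and 5 in WTMM against WTPP. Bag4, which binds the HSP70 ATPase domain, was called higher in WTPP (log2 fold change 0.32 ± 0.08 SE, adjusted p = 0.024) and in WTMM (log2 fold change 0.52 ± 0.08 SE, adjusted p = 0.00244) against WT. Fkbp5, a glucocorticoid-induced immunophilin, was 2.14-fold higher in WTMM than in WTPP (log2 fold change 1.098 ± 0.26 SE, adjusted p = 0.0344). The 4 genes for heat shock factors and their regulators had 0 calls in any contrast with limma or voom, and at an unadjusted p under 0.05 there was 1, Hsf2, in WTMM against WT and against WTPP. Hsf1 had log2 fold changes of 0.17 in WTMM and -0.12 in WTPP against WT (adjusted p = 0.443 and 0.624), and Hsf2 of 0.30 in WTMM (adjusted p = 0.056). The 5 tested small heat shock proteins also had 0 calls by limma or voom, with 2 genes at an unadjusted p under 0.05 in WTMM against WT, 1 in WTPP against WT and 2 in WTMM against WTPP. Among them was Hspb8, at -0.42 in WTPP against WT (adjusted p = 0.0637).

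**Figure D5:**
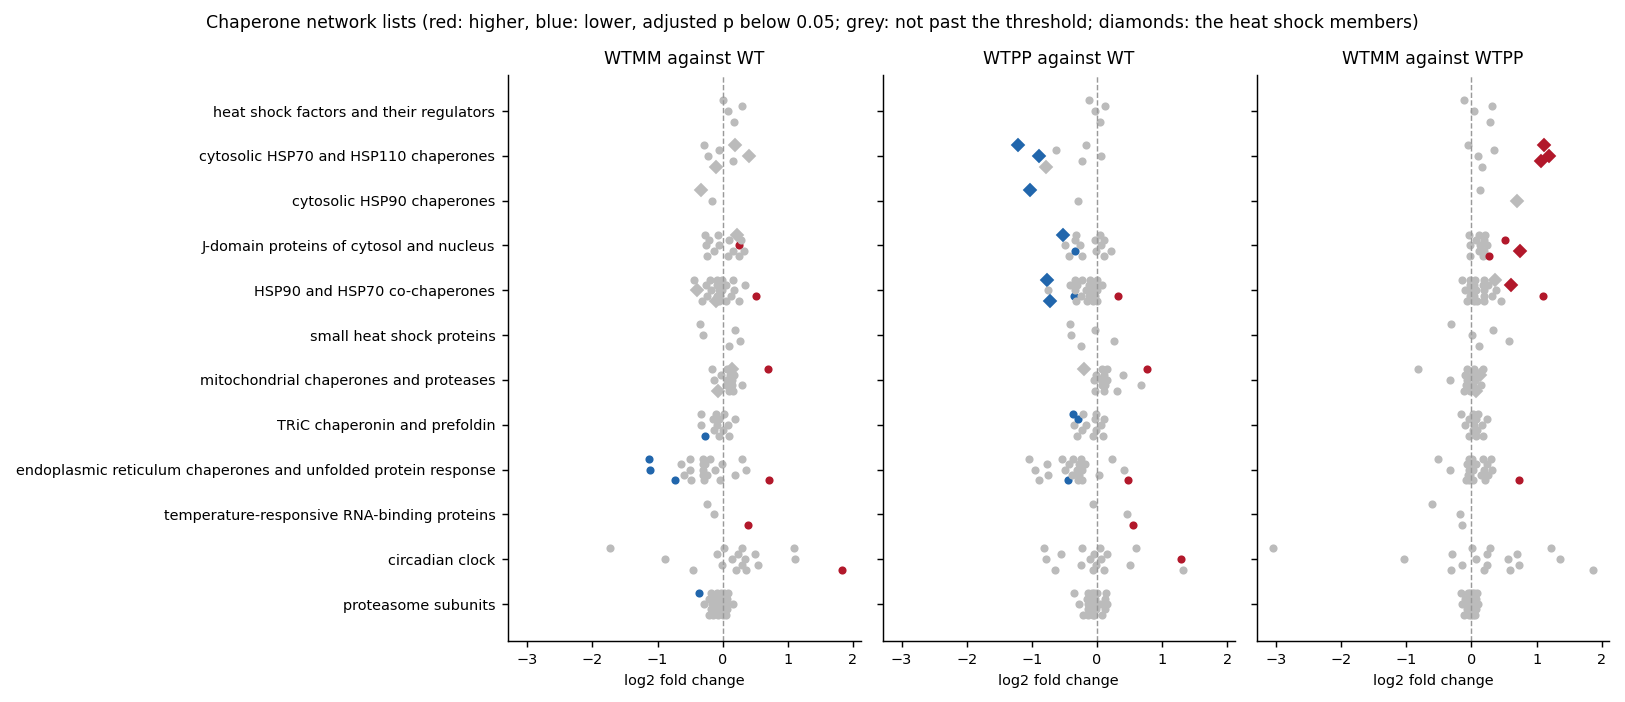
Log2 fold changes of each tested gene of 12 lists in the 3 contrasts on a shared axis; red points were called higher and blue points lower at an adjusted p below 0.05, grey points were not called, and diamonds are the heat shock members. The blue diamonds of WTPP against WT stand among mostly grey points of their lists, and the HSP70 and HSP110 list has 2 of them.

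In the mitochondrion, Grpel2, a nucleotide exchange factor of the matrix HSP70, was the only one of 14 genes outside the pair that was called, higher in WTMM (log2 fold change 0.69 ± 0.12 SE, adjusted p = 0.00526) and in WTPP (log2 fold change 0.76 ± 0.12 SE, adjusted p = 0.00308) against WT. Of 14 genes for the TRiC chaperonin and prefoldin, which fold actin and tubulin, Tcp1 (-0.29, adjusted p = 0.0192) and Pfdn5 (-0.36, adjusted p = 0.0437) fell in WTPP against WT on the log2 scale, and Cct7 in WTMM against WT (-0.26, adjusted p = 0.0275). Among 23 genes of the endoplasmic reticulum, 19 were below 0 in each contrast with WT, with medians of -0.29 in WTMM and -0.31 in WTPP. Called lower in WTMM were Sdf2l1, Creld2 and Dnajc10, of which Sdf2l1 had 584.5, 846.6, 988 and 769 normalized counts in WTMM and 1321, 1611, 735 and 609 in WTPP, against 1920.3, 939, 2180.1 and 2084.5 in WT. Sdf2l1 was again lowest in WTPP 6 and 7 among the WTPP libraries. Called lower in WTPP was Atf6, a sensor of unfolded protein (log2 fold change -0.44 ± 0.11 SE, adjusted p = 0.0206), while Herpud1, of the degradation pathway, was called higher in WTMM (log2 fold change 0.71 ± 0.14 SE, adjusted p = 0.00805) and in WTPP (log2 fold change 0.48 ± 0.14 SE, adjusted p = 0.0463). Dnajb9 was higher in WTMM than in WTPP (log2 fold change 0.73 ± 0.17 SE, adjusted p = 0.0275).

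Of the genes for the response to damaged protein, Hmox1, heme oxygenase, was called lower in both lineages against WT, at log2 fold changes of -1.04 in WTMM and -1.21 in WTPP (adjusted p = 0.00865 and 0.00435). Of the temperature-responsive RNA-binding proteins, Srsf5, a splicing factor, was higher in WTMM (log2 fold change 0.40, adjusted p = 0.0278) and in WTPP (0.55, adjusted p = 0.00642) against WT. Cirbp and Rbm3, which rise in the cold, were not called in any contrast. By limma Cirbp had log2 fold changes of 0.47 in WTPP against WT (unadjusted p = 0.0215) and -0.60 in WTMM against WTPP (unadjusted p = 0.00483, adjusted p = 0.0811). Rbm3 had -0.06 and -0.18 in these contrasts. Of the 18 clock genes, which differed widely within WTPP, Per1 was the one called, higher in WTMM (1.84, adjusted p = 0.00741) and WTPP (1.28, adjusted p = 0.0375) on the log2 scale. Of 24 ribosomal protein genes 23 were below 0 in WTPP against WT, and their median was -0.22. Of 27 proteasome genes limma called 0 in WTPP against WT, with 2 at an unadjusted p under 0.05 and 1 called by voom, and 1 lower in WTMM against WT, Psmc5 (-0.36, adjusted p = 0.0477). The part of the clock or the ribosomal genes in the heat shock result was not tested beyond the fits without pairs of WTPP libraries.

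Markers of other cells differed between WT and the descendants. Of 10 Kupffer cell markers, 9 were called lower in WTMM and 10 in WTPP against WT, and 0 was called between WTMM and WTPP by limma (0 at an unadjusted p under 0.05 and 0 by voom). Their summed normalized counts were 13410.3 to 17838 in WTMM, 14157 to 18354 in WTPP and 20656 to 45311 in WT. Of 7 markers of T and NK cells, 6 were lower in WTMM and 3 in WTPP, with sums of 137 to 149 in WTMM, 146 to 195 in WTPP and 261 to 615 in WT. Of 6 B cell markers, 4 were lower in WTMM and 3 in WTPP. Of 12 pancreatic acinar markers, 9 were tested and 7 were lower in each lineage against WT, with sums of 1331 to 1736 in WTMM, 483 to 1250.5 in WTPP and 1212.6 to 3411 in WT. Those at 0 in every library of a group numbered 4 of the 12 in WTMM, 5 in WTPP and 0 in WT. Of 6 hepatocyte markers 1 was lower in each lineage, with sums of 2567237 to 3045238 in WTMM, 3174888 to 3569619 in WTPP and 2853608 to 4241327 in WT. Between WTMM and WTPP the sums did not overlap for hepatocytes, stellate cells and cholangiocytes, which were lower in WTMM, and for the acinar list, higher in WTMM; of their tested markers 1, of cholangiocytes, was called in that contrast. Alb alone gave 2023590 to 2502890 of the hepatocyte sum in WTMM and 2600350 to 3097770 in WTPP, so that sum is mostly 1 gene. Cela1 alone gave 1301 to 1715 of the acinar sum in WTMM and 446 to 1237 in WTPP, and Cela2a averaged 22.0 in WTMM and 21.7 in WTPP. The part of these cells in the heat shock results was not tested.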

How the data were processed

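Liver RNA of 12 mice was sequenced from directional libraries, per the labels' protocols; cutadapt, HISAT2, DESeq2 and build GRCm38 are named in the submitters' processing notes, without versions or roles. The gene counter, its use of strand and its handling of reads with several matches were not given in the sources used here. The deposited table holds log2(normalized count + 0.1) by the authors for 25069 genes; 100% of the antilogs were whole multiples of 1 step per library within 0.001, which gave reads and totals. The precision of a level is that of the spread between libraries. In the main limma fit a p-value sets a group difference against 1 spread per gene, shared by the 3 groups.

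The main test was limma 3.58.1 (R 4.3.3) with a mean-variance trend on log2(normalized count + 1), a scale that understates changes of low genes. It fitted 3 group means over 12 libraries, tested the 14473 genes with a mean of at least 10 and adjusted p by Benjamini-Hochberg over them at 0.05 in each contrast; the procedure was checked on simulated data. Hspa1a, below that filter, had exact permutation tests. The 27 alternatives changed the pseudocount, filter, scaling, spread model or libraries used, and 3, summing near-identical copies and leaving out each pair of WTPP libraries, were chosen after seeing the data. Windows of 50 bases came from GENCODE M21 transcripts, exon lengths and coordinates from its annotation on GRCm38, and promoters from RefSeq (GRCm38.p6); a copy held at least 10% of a gene's windows. Protein sequences were not used here.

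The 10 genes, the 14 lists and the rules were chosen with earlier results of these data known. Named list genes were up to 4 past the threshold with the smallest p per contrast, or the smallest p where none passed. Hspa2, Hspa4, Hspa4l, Cirbp, Rbm3, Arntl, Dbp, Clpx, Alb, Cela1, Cela2a and the pseudogenes were named after their values were seen. Some list genes that meet this rule are not reported here. The labels give no batch, and WT libraries carry numbers apart from the others, so a batch that followed them cannot be told apart from the WT contrasts.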

Additional observations from a re-analysis of the deposited data

Results flagged for a closer look

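In each group of 4 libraries the distance of the highest or lowest library from its nearest neighbour was compared with the range of the group. In 4 of 30 such groups 1 library stood apart past Dixon's 95% critical ratio, which chance gives in about 1 of 20. WTMM 9 was the highest of WTMM for Dnajb1, at 1476 normalized counts, and for Hspa1a, at 18.7. WTPP 7 was the highest of WTPP for Hspa1a, at 10.96, and WT 116 the highest of WT, at 9.34. These Hspa1a levels rest on few reads.

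The lineages differed in the direct test of WTMM against WTPP for 5 genes. The log2 fold changes were 1.07 for Hspa8, 1.11 for Hsph1, 0.61 for Chordc1, 0.75 for Dnajb1 and 1.19 for Hspa1b, with adjusted p of 0.00148, 0.0227, 0.00833, 0.00869 and 0.0372 by limma. All 4 WTMM libraries were above all 4 WTPP libraries for each of the 5. Of all tested genes, 2.29% were called higher in this contrast and 6.94% lay wholly above. Over the 27 alternative fits the call was lost in 13 for Hspa1b, in 5 for Hsph1 and in 1 for Dnajb1. For Hspa8 the difference was 0.74 when its copies were summed.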

How the results depend on the processing

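Of 9 genes tested, 4 to 7 were called lower in WTPP against WT over the 27 alternatives (6 as reported), 7 being without WT 117 with Hspe1 among them, and Hspa8, Hsph1, Chordc1 and Stip1 were among them in all. Over all 14473 tested genes the calls of that contrast in either direction also moved. They were 1479 as reported, 659 without WTPP 6 and 7 and 1997 without WT 117. The count called higher in WTMM against WTPP was 3 with only the groups compared, and 3 to 5 with 1 library left out, 3 being without WTMM 8, WTMM 9 or WTPP 6 (5 as reported). Over all tested genes that contrast had 603 calls as reported and 498 with only the groups compared. It had 397 without WTMM 8, 266 without WTMM 9 and 408 without WTPP 6. In WTMM against WT the count called lower was 1, Stip1, with only the groups compared, without WTPP 2 and 3 and without WTPP 6 and 7, and 0 in every other fit. The fits that called Stip1 called 1620, 1780 and 1812 of all tested genes, against 1502 as reported. Hsph1 in WTMM against WT ran from -0.21 to 0.025 on the log2 scale with 1 library left out, above 0 without WTMM 7, and Hspa8 turned to -0.11 with copies summed; neither was called. With WTPP 7 left out, the exact test of Hspa1a passed the threshold for WTMM against WTPP (1.67, adjusted p = 0.0429) and for WTPP against WT (-1.01, adjusted p = 0.0429). Where a call ended, the cause was not tested. Numbers 6 and 7 occur in both WTMM and WTPP and were taken as names of animals, not as pairs. A fit with them as a replicate block gave 0, 6 and 5 calls, as without it (consensus correlation -0.133). Depth limits Hspa1a, the 1 gene of the 10 under the filter.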
